A study of Mus musculus with 4 samples.

Results

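Arginine and polyamine metabolism was followed through 8 genes, Slc7a2, Arg1, Arg2, Nos2, Ass1, Odc1, Smox and Sat1, among the 31053 genes of single-cell RNA sequencing libraries from mouse bone. The genes were taken by their symbols, and the set was chosen by measured values, since Arg1 and Nos2 had led a group of monocytes in an earlier analysis of the same libraries. Their levels by cell type and their joint detection in single cells are therefore given as a description, with no test. Of 40003 barcodes in the files, 32217 held 1000 to 40000 unique molecular identifiers (UMIs, 1 for each captured transcript) with at most 10% from mitochondrial genes. After 2086 putative doublets and barcodes with fewer than 200 genes were left out, 30042 cells remained.

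Arginine enters cells through cationic amino acid transporters such as the one encoded by Slc7a2, and enzymes then compete for it. Arginases split it into urea and ornithine, and ornithine feeds the polyamines putrescine, spermidine and spermine, whereas nitric oxide synthases turn it into nitric oxide and citrulline, which argininosuccinate synthase starts to recycle into arginine. In macrophages and monocytes Arg1 and inducible Nos2 are classical markers of contrasting activation states, and in cartilage and bone Nos2 is known as a gene induced by inflammatory cytokines.

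The study compared wild-type mice that were tail-suspended for 28 days (hindlimb unloading, HLU, n = 2) with control mice kept for the same time (Ctrl, n = 2), to ask how the cell types of bone respond to the lack of load. Tibiae and femurs were flushed to remove marrow, the remaining tissue was digested with enzymes, and 1 droplet library was made per sample with the 10x 3′ v3.1 kit. The sources used here differ on the age of the mice, and no batch was stated. The labels give 2 libraries per group and do not state how many mice went into each.

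Each library held 10000 to 10003 barcodes and 47819046 to 99849070 UMIs, and 6905 to 8719 cells were kept, with a median of 3757 to 6164 UMIs per cell. The makeup of the libraries differed strongly between the groups. Chondrocytes made up 28.3% and 21.4% of the Ctrl cells but 0.634% and 1.16% of the HLU cells, whereas monocytes made up 3.01% and 4.90% of the Ctrl cells and 6.42% and 15.2% of the HLU cells. HLU replicate 2 stood apart, with the most UMIs, 230 barcodes above 40000 UMIs and 267 barcodes under 1000 UMIs, against 2143 to 2585 in the other libraries. Any pair of libraries shared 10 to 20 barcodes. Levels are given as CPM, the UMIs of a gene in the summed cells of a type and library scaled to a common total, which is a scale that does not depend on gene length because the kit reads transcript ends.

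Cell types were named from fixed marker lists, and the members were kept out of the clustering. Monocytes were 2353 cells in clusters 6 and 13. Cluster 6 (1424 cells) was led by Serpinb2, U90926, Arg1, Vcan and Il1a, and a UMI of the monocyte receptor gene Csf1r was found in 86.7% of its cells but one of Ly86 in only 10.3%. Of the monocyte markers, Ly6c2 (615 against 1024 CPM) and Fn1 (628 against 2407 CPM) were lower in cluster 6 than in all other cells. Csf1r, Ccr2, F13a1, Ms4a6c and, by a narrow margin, Ly86 were higher. Cluster 13 (929 cells) was led by Marco and Ms4a6c, and 58.1% of its cells had a UMI of the chemokine receptor gene Ccr2. Of the same markers only Fn1 was lower in cluster 13 than in all other cells (283 against 2433 CPM). Resident macrophages were counted as 5, 11, 1 and 59 cells in Ctrl replicates 1 and 2 and HLU replicates 1 and 2, so that their levels rest mainly on 1 library. Values in sets of 4 are given in that order of libraries throughout.

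Slc7a2, the transporter that brings arginine into the cell, was a transcript of the skeletal cells. Of its 47403 UMIs, 61.4% were in chondrocytes and 33.8% in stromal and osteoblast-lineage cells. In chondrocytes its level was 785, 596, 475 and 2051 CPM, and in stromal and osteoblast-lineage cells 534, 604, 50.8 and 479.9 CPM. HLU replicate 2 was the highest in chondrocytes and HLU replicate 1 the lowest in both types, and in chondrocytes the Ctrl libraries fell between the HLU libraries. Monocytes held 29.7, 32.7, 5.95 and 40.8 CPM, and here too HLU replicate 2 was above and HLU replicate 1 below both Ctrl libraries. Resident macrophages of HLU replicate 2 reached 800.0 CPM from 59 cells, but 10 cells carried 82.7% of these UMIs.

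Arg1, the cytosolic arginase, was the rarest member, with 3885 UMIs, and 93.5% of them were in monocytes. Its level in monocytes was 327, 550.1, 57.8 and 16.8 CPM. Both Ctrl libraries were above both HLU libraries, and the means (± SD, n = 2 libraries) were 439 ± 158 CPM for Ctrl against 37.3 ± 29.0 CPM for HLU. A UMI was found in 32.7%, 34.2%, 11.6% and 5.42% of monocytes, although the median depth of a monocyte was higher in HLU (11776.5 and 12802 UMIs) than in Ctrl (9050 and 9469 UMIs). After each cell was thinned to 1000 UMIs the shares were 19.7%, 21.7%, 3.43% and 0.753%. B cells, which should lack Arg1, had shares of 1.38%, 1.06%, 0.532% and 0% at median depths of 2417.5 to 3434 UMIs, and the 0 of 424 cells in HLU replicate 2 allowed a share of up to 0.866% (exact upper bound). The thinned share of HLU replicate 2 lay within the exact 95% interval of the thinned B cells (0 to 0.866%), so that the thinned share alone did not set its monocytes apart from background. Without thinning, and at the greater depth of monocytes, its share of 5.42% was above that interval. There 12 monocytes had 5 or more Arg1 UMIs, whereas the highest count in a B cell of that library was 0. Intervals cover counting error only.

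Arg1 was concentrated in few cells. The 10 monocytes with the most Arg1 held 43.7%, 34.5%, 62.0% and 71.5% of the Arg1 UMIs of their library, and single cells reached 39, 135, 46 and 61 UMIs. In cluster 6 the level was 506, 907, 97.0 and 21.6 CPM and in cluster 13 it was 45.1, 175, 16.6 and 12.4 CPM, so that Ctrl lay above HLU in each cluster and cluster 6 lay above cluster 13 in every library. Resident macrophages held 228, 224, 0 and 67.7 CPM from their few cells. Outside these myeloid cells Arg1 was low, at 25.6 CPM or less in every sum. Stromal and osteoblast-lineage cells of HLU replicate 2 held 11.4 CPM, where 1 cell gave 13 of the 15 UMIs. B cells of Ctrl replicate 2 stood at 25.6 CPM, where 1 cell gave 29 of the 31 UMIs.

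Arg2, the mitochondrial arginase, followed the neutrophils instead. Mature neutrophils held 52.5% and immature neutrophils 24.1% of its 23894 UMIs. The level in mature neutrophils was 656, 779, 676 and 332 CPM, and HLU replicate 2 alone was low there. Immature neutrophils held 135, 176, 129 and 62.8 CPM, with both HLU libraries under both Ctrl libraries. Monocytes held 76.9, 73.1, 70.7 and 49.3 CPM, a range far narrower than that of Arg1. In the skeletal cells the order was turned round, with 4.98, 12.1, 35.3 and 38.3 CPM in chondrocytes and 7.20, 15.0, 58.9 and 54.2 CPM in stromal and osteoblast-lineage cells, and HLU above Ctrl without overlap in both types.

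Nos2, the inducible nitric oxide synthase, gave most of its UMIs in chondrocytes in 3 of the 4 libraries. Over all libraries chondrocytes held 72.6% of its 46110 UMIs, stromal and osteoblast-lineage cells 15.0% and monocytes 5.31%. In HLU replicate 1, with its few chondrocytes, monocytes held 49.1% (466 UMIs) and chondrocytes 5.80% (55 UMIs). The level in chondrocytes was 654, 1010.3, 77.6 and 1776 CPM, so that the Ctrl libraries lay between the HLU libraries. Only 46 chondrocytes were kept in HLU replicate 1, and 10 of them held 96.4% of its 55 Nos2 UMIs. Stromal and osteoblast-lineage cells held 180, 344, 8.80 and 49.6 CPM, with Ctrl above HLU. In chondrocytes 51.1%, 60.5%, 15.2% and 64.4% of cells had UMIs of both Nos2 and Slc7a2.

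Monocytes carried Nos2 at 244, 321, 77.0 and 7.09 CPM, again with both Ctrl libraries above both HLU libraries (283 ± 54.2 against 42.04 ± 49.4 CPM, SD, n = 2 each). Shares of monocytes with a UMI were 40.4%, 51.0%, 20.2% and 5.57%, and 16.3%, 21.1%, 6.22% and 1.43% after thinning. B cells, which should lack Nos2 too, had shares of 8.28%, 17.0%, 1.24% and 0.472%, and 2.07%, 6.36%, 0.177% and 0% after thinning, so that the background was itself higher in the Ctrl libraries. In every library the thinned monocyte share was above the thinned B cell share. Mature neutrophils had more Nos2 than B cells, with a UMI after thinning in 121 of 1186, 270 of 1588, 59 of 2418 and 33 of 2440 cells. In HLU replicate 2 that share was close to the 19 of 1328 monocytes. Cluster 6 held 298, 504, 131 and 11.2 CPM and cluster 13 held 160.0, 128, 20.01 and 3.25 CPM.

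Ass1, which joins citrulline to aspartate in the recycling of arginine, had 65.4% of its 8199 UMIs in monocytes and 16.8% in neutrophil progenitors over all libraries. The monocyte share was 27.9%, 43.3%, 72.6% and 78.9% by library, and monocytes of HLU replicate 2 alone gave 3239 UMIs. Monocytes held 111, 162, 202 and 165 CPM, and HLU was above Ctrl without overlap but by a narrow margin (165 against 162 CPM). Of all genes tested in monocytes, 22.4% were higher in HLU without overlap. Dendritic cells held 80.4, 307, 109 and 111 CPM, above monocytes in Ctrl replicate 2 only. Within monocytes Ass1 was higher in cluster 13 (184, 230.4, 280.2 and 217 CPM) than in cluster 6 (65.0, 96.4, 128 and 109 CPM), the reverse of Arg1. Mature neutrophils, by contrast, had at most 2.32 CPM.

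**Figure D1:**
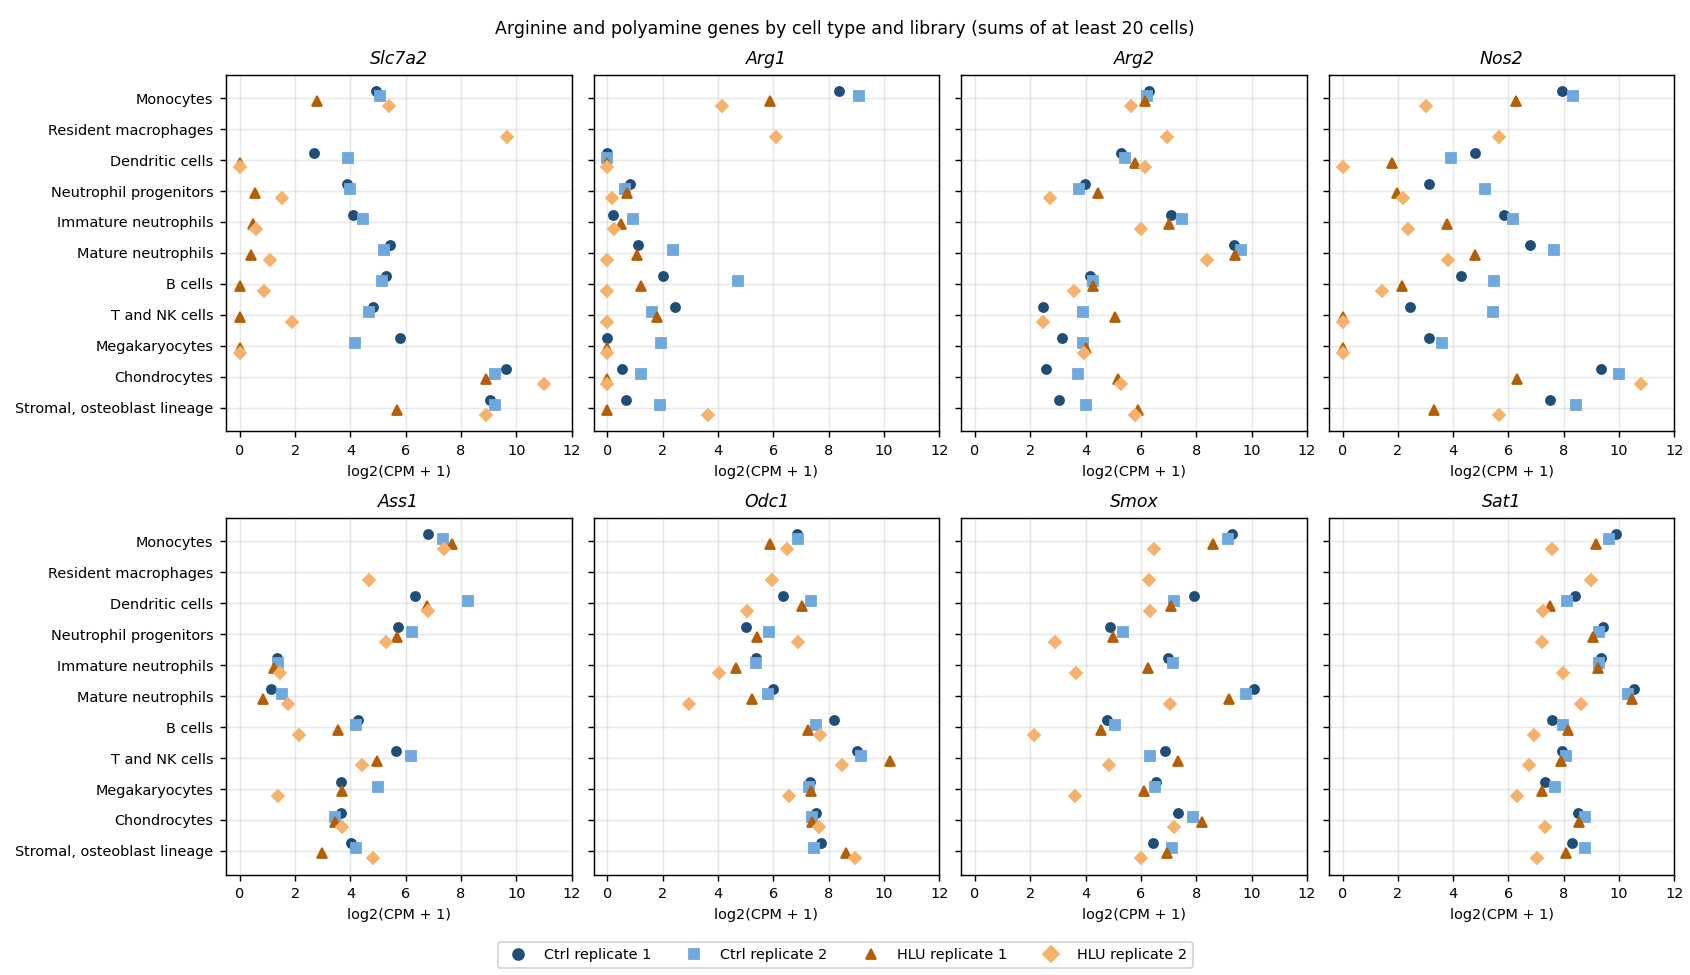
Levels of the 8 genes as log2(CPM + 1) of the summed UMIs of each cell type, 1 point per library of at least 20 cells, with circles and squares for Ctrl replicates 1 and 2 and triangles and diamonds for HLU replicates 1 and 2. Arg1 stands out in monocytes except in HLU replicate 2 (16.8 CPM), where resident macrophages hold 67.7 CPM. Nos2 stands out in chondrocytes except in HLU replicate 1 (77.6 CPM, against 77.0 CPM in monocytes). Slc7a2 is highest in chondrocytes except in Ctrl replicate 2 (596 CPM, against 604 CPM in stromal and osteoblast-lineage cells). Arg2 stands out in mature neutrophils, where Smox of HLU replicate 2 (133 CPM) lies below the other libraries (581 to 1086 CPM).

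Odc1, ornithine decarboxylase, makes putrescine and is the first enzyme of polyamine synthesis. Of its 24640 UMIs over all libraries, 28.7% were in chondrocytes and 26.6% in stromal and osteoblast-lineage cells. Its level in T and NK cells was 524, 575, 1191 and 355 CPM, the highest of the cell types in 3 libraries but not in HLU replicate 2. The HLU libraries were the extremes there, so that the groups overlapped. Stromal and osteoblast-lineage cells held 211, 177, 397 and 499.8 CPM with HLU above Ctrl, but the clusters of this class were not evenly shared between libraries. HLU was above Ctrl in cluster 18 (259, 249.5, 736 and 638 CPM) and cluster 22 (197, 196, 286 and 657 CPM) and below it in cluster 14 (264, 127, 82.7 and 73.6 CPM), which held 233 of the 371 cells of HLU replicate 1 and 132 of the 1817 cells of Ctrl replicate 1. Chondrocytes were even across libraries, at 185, 168, 169 and 201 CPM. In monocytes (114 and 118 CPM in Ctrl, 57.5 and 88.8 CPM in HLU) and in mature neutrophils (62.9, 54.8, 36.8 and 6.75 CPM) both HLU libraries were below both Ctrl libraries.

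Smox, spermine oxidase, turns spermine back into spermidine, and Sat1, spermidine/spermine acetyltransferase, starts the breakdown and export of polyamines. Among the named cell types both were highest in mature neutrophils and next in monocytes in the Ctrl libraries. This order did not hold in HLU. In HLU replicate 2, Smox in chondrocytes (145 CPM) was above that in mature neutrophils (133 CPM) and monocytes (87.3 CPM). Sat1 in monocytes was below that in immature neutrophils in HLU replicate 1 (568 against 608 CPM) and HLU replicate 2 (187 against 250.1 CPM). Smox was at 1086, 900.1, 581 and 133 CPM in mature neutrophils and at 635, 565, 394 and 87.3 CPM in monocytes. In both types the HLU libraries were below the Ctrl libraries, and HLU replicate 2 was far below HLU replicate 1.

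Sat1 was the most abundant member, with 102501 UMIs. Its level was 1495, 1292, 1404 and 396 CPM in mature neutrophils and 958, 790.2, 568 and 187 CPM in monocytes. Mature neutrophils of HLU replicate 1 lay within the Ctrl range, whereas HLU replicate 2 was low for Sat1 in mature and immature neutrophils (250.1 against 608 to 646 CPM), neutrophil progenitors (146 against 531 to 676 CPM), B cells (120.0 against 189 to 280.0 CPM) and chondrocytes (157 against 369 to 440.1 CPM). Low Sat1 of HLU replicate 2 was thus seen in blood cells and chondrocytes alike, whereas its Smox in chondrocytes (145 CPM) was close to that of Ctrl replicate 1 (161 CPM), and what sets this library apart was not tested.

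**Figure D2:**
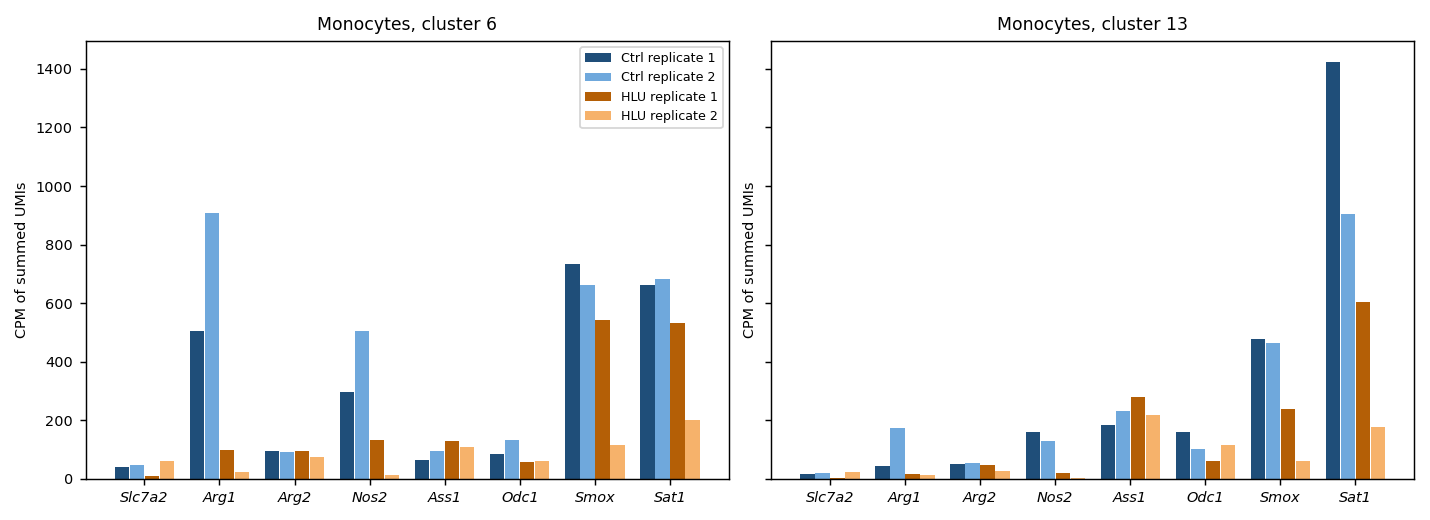
CPM of the 8 genes in monocytes of cluster 6 (left) and cluster 13 (right), 1 bar per library, with blue bars for Ctrl and orange bars for HLU. Arg1 and Nos2 reach 907 and 504 CPM in cluster 6 of Ctrl replicate 2 and 21.6 and 11.2 CPM in that of HLU replicate 2, and Ass1 is higher in cluster 13 in each library.

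Arg1 and Nos2 were found in the same monocytes. Cells with UMIs of both numbered 43 of 208, 87 of 351, 27 of 466 and 7 of 1328. As shares these were 20.7% (exact 95% interval 15.4 to 26.8%) and 24.8% (20.4 to 29.6%) in Ctrl, and 5.79% (3.85 to 8.32%) and 0.527% (0.212 to 1.08%) in HLU. Each interval covers the counting of cells in its own library only and is no test of HLU against Ctrl, and the HLU libraries themselves were far apart. Thinning to 1000 UMIs per cell left 8.65%, 10.3%, 0.858% and 0.0753%. Among B cells 0, 1, 0 and 0 cells had both. Only 2, 3, 3 and 0 B cells had Arg1 at all, so these counts cannot show the background for both genes. Nos2 was found in 12 of 145, 48 of 283, 7 of 564 and 2 of 424 B cells, and this background was not taken off the monocyte shares.

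The number of cells with both genes was above the product of the separate shares in each library, which came to 27.5, 61.2, 10.9 and 4.01 cells. Of the monocytes with Arg1, 63.2%, 72.5%, 50% and 9.72% had Nos2, against 29.3%, 39.8%, 16.3% and 5.33% of the monocytes without Arg1. Cells with both genes were mostly of cluster 6, from 81.5% in HLU replicate 1 to 100% in HLU replicate 2. Within cluster 6 they made up 28.4%, 38.0%, 8.21% and 0.851% of cells, and the products of the shares were 25.1, 57.5, 13.5 and 3.88 cells for 40, 73, 22 and 7 observed. Cluster 13 had 3, 14, 5 and 0 such cells, where the products of the shares were 2.99, 9.66, 0.601 and 0.535 cells. There the count was above the product in Ctrl replicate 2 and HLU replicate 1, at it in Ctrl replicate 1 and below it in HLU replicate 2. Cells with both genes had fewer UMIs than cells with neither in every library, with a median of 6734, 7690, 10613 and 9911 UMIs against 9643, 9973, 12297 and 12661 UMIs.

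**Figure D3:**
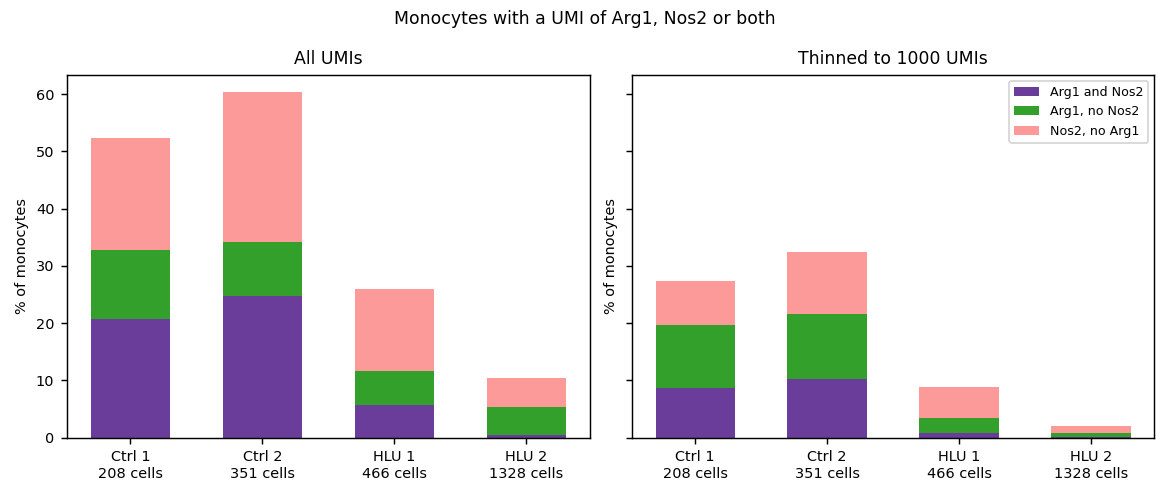
Percent of monocytes in each library with UMIs of both Arg1 and Nos2, of Arg1 without Nos2 and of Nos2 without Arg1, as stacked bars, from all UMIs (left) and after thinning each cell to 1000 UMIs (right). The share with both lies between 20.7% and 24.8% in the Ctrl libraries and between 0.527% and 5.79% in the HLU libraries, and is lower after thinning in each.

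Other members differed between these cells as well, but so did the mix of clusters. Cluster 6 gave 93.0%, 83.9%, 81.5% and 100% of cells with both genes, against 62.6%, 38.8%, 48.1% and 60.3% of cells with neither. Smox was higher in cluster 6 (735, 660, 542 and 116 CPM) than in cluster 13 (477, 464, 238 and 60.4 CPM), and Ass1 was lower. The part of the cluster mix in the differences below was not tested. Smox in cells with both genes was 1022, 931, 674 and 155 CPM, above the 524, 425, 327 and 82.9 CPM of cells with neither. Ass1 went the other way, with 67.4, 84.2, 138 and 129 CPM in cells with both and 123, 197, 224 and 167 CPM in cells with neither. Arg1 and Ass1 were met together in 16, 45, 24 and 49 monocytes, where the product of the shares was 25.5, 55.0, 32.2 and 46.0 cells, so that the count was below the product in 3 libraries and above it in HLU replicate 2. Sat1 was higher in cells with both in Ctrl (1656 and 1044 against 627 and 739 CPM) and close to that of cells with neither in HLU (621 and 181 against 584 and 187 CPM). The 7 cells of HLU replicate 2 with both genes limit its values.

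HLU and Ctrl were then compared by edgeR's quasi-likelihood test on the summed UMIs per library of each cell type with at least 20 cells in every library, across all genes and with Benjamini-Hochberg adjustment. A gene was called at an adjusted p under 0.05. In monocytes all 8 members were tested and 0 were called, where 0.0765% of 10460 genes (8 genes, all lower in HLU) were. By an unadjusted p under 0.05 there were 2, Arg1 and Nos2, beside 450 of all genes tested. DESeq2 called the same 2 genes, and the share of all genes it called is not given here.

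Arg1 had the largest estimate in monocytes, with a log2 fold change of -3.60 (SE 0.65) and an adjusted p of 0.302 by edgeR, and was lower in 2 of 2 HLU libraries. Nos2 had -2.82 (SE 1.01) with an adjusted p of 0.818 by edgeR. The other estimates were -1.37 for Smox, -1.26 for Sat1, -0.67 for Odc1, -0.37 for Slc7a2, -0.35 for Arg2 and 0.41 for Ass1, each with an edgeR adjusted p of at least 0.818. Without overlap between the groups, 6 members were lower and 1 (Ass1) was higher in HLU, where 15.6% and 22.4% of all genes tested were so. The median log2 fold change over the members was -0.97, beside 0.04 over all genes tested. With HLU replicate 1 left out the estimates were -4.69 for Arg1 and -5.30 for Nos2, and with HLU replicate 2 left out they were -2.98 and -1.94. Each of these fits rests on 1 HLU library and takes its spread from the Ctrl pair, so only estimates are given. Nos2 in monocytes ranged from 7.09 to 77.0 CPM between the HLU libraries and from 244 to 321 CPM between the Ctrl libraries. Arg1 there ranged from 16.8 to 57.8 CPM in HLU and from 327 to 550.1 CPM in Ctrl.

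Outside monocytes Slc7a2 fell in B cells and in neutrophils. In mature neutrophils it was at 42.5, 35.8, 0.321 and 1.11 CPM (log2 fold change -5.41, SE 0.68, edgeR adjusted p = 0.0188), and in immature neutrophils at 16.0, 20.7, 0.405 and 0.484 CPM (log2 fold change -5.29, SE 0.42, edgeR adjusted p = 0.00642). B cells had 25, 42, 0 and 1 UMIs, a ratio of Ctrl over HLU of 126 (counting interval 21.8 to 5047), with an edgeR adjusted p of 0.0165. Ctrl and HLU did not overlap in any of these. Nos2 fell in mature neutrophils (108, 198, 27.0 and 13.1 CPM, log2 fold change -2.87, SE 0.45, edgeR adjusted p = 0.0352) and in immature neutrophils (55.6, 70.7, 12.8 and 4.14 CPM, log2 fold change -2.96, SE 0.49, edgeR adjusted p = 0.0497). The last call was lost with other size factors (RLE), without Ctrl replicate 1 and without Ctrl replicate 2, and that in mature neutrophils without Ctrl replicate 2 (edgeR adjusted p up to 0.190 and 0.239).

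These calls were 2 of 6 members tested in mature neutrophils, 2 of 7 in immature neutrophils and 1 of 7 in B cells, where 2.7%, 1.43% and 0.435% of all genes were called. Calls over all genes were nearly all in the same direction, with 232 of 232, 146 of 149 and 36 of 36 lower in HLU. In T and NK cells 0 of 5 members passed by edgeR, where 0.317% of all genes did, and 0 were called by DESeq2. There 2 members had an unadjusted p under 0.05, beside 317 of 5670 genes. Nos2, which was not tested there, had 22 UMIs in Ctrl and 0 in HLU, at least 15.5-fold lower against a floor of 3 UMIs over the group. Of these, 1 UMI was in Ctrl replicate 1, itself under the floor, and 21 were in Ctrl replicate 2, so the ratio rests on 1 library. Slc7a2 there had 18 UMIs in Ctrl and 3 in HLU, a ratio of 12.7 (counting interval 3.70 to 67.2). Neutrophil progenitors had 0 of 7 members called by edgeR (0.101% of all genes) and 2 by DESeq2. There 2 members had an unadjusted p under 0.05, beside 438 of 9912 genes, with log2 estimates of -3.75 for Slc7a2 and -2.90 for Nos2.

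Transcripts of skeletal cells moved with Slc7a2 and Nos2 in these blood cells. The 6 chondrocyte markers summed to 476, 501, 5.30 and 2.12 CPM in mature neutrophils, 184, 233, 2.97 and 0.792 CPM in immature neutrophils and 281, 358, 6.07 and 3.36 CPM in B cells. All 6 were seen in each of these sums of Ctrl. Stromal markers, 7 in the list, summed to 1275, 985, 5.94 and 3.93 CPM in mature neutrophils and to 740.3, 727, 5.20 and 5.03 CPM in B cells. Monocytes held 149, 214, 5.12 and 1.12 CPM of the chondrocyte markers, beside 40.8 CPM of Slc7a2 in HLU replicate 2 and 77.0 CPM of Nos2 in HLU replicate 1. Barcodes under 1000 UMIs, which entered no sum, held Nos2 at 262, 469, 12.99 and 123 CPM and Slc7a2 at 464, 342, 18.0 and 159 CPM. The part of free skeletal RNA in the Slc7a2 and Nos2 differences of blood cells was not tested.

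Nos2 and Slc7a2 did not keep a single ratio of UMIs across types. Nos2 stood at 0.833, 1.70, 0.163 and 0.866 UMIs per UMI of Slc7a2 in chondrocytes, at 2.55, 5.55, 84.0 and 11.8 in mature neutrophils, where the 84.0 is 168 UMIs over 2, fewer than the floor of 3, and at 8.22, 9.82, 12.9 and 0.174 in monocytes. In B cells of Ctrl it was 0.480 and 1.24, between the values of stromal and osteoblast-lineage cells (0.338 and 0.570) and those of chondrocytes in the same library. The ratio was thus higher in mature and immature neutrophils, and in the monocytes of 3 libraries, than in skeletal cells of the same library. In neutrophil progenitors of Ctrl replicate 1 (0.556) it was below that of chondrocytes (0.833). The HLU ratios of mature and immature neutrophils rest on 2 to 11 UMIs of Slc7a2. What these ratios mean for free skeletal RNA was not tested.

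**Figure D4:**
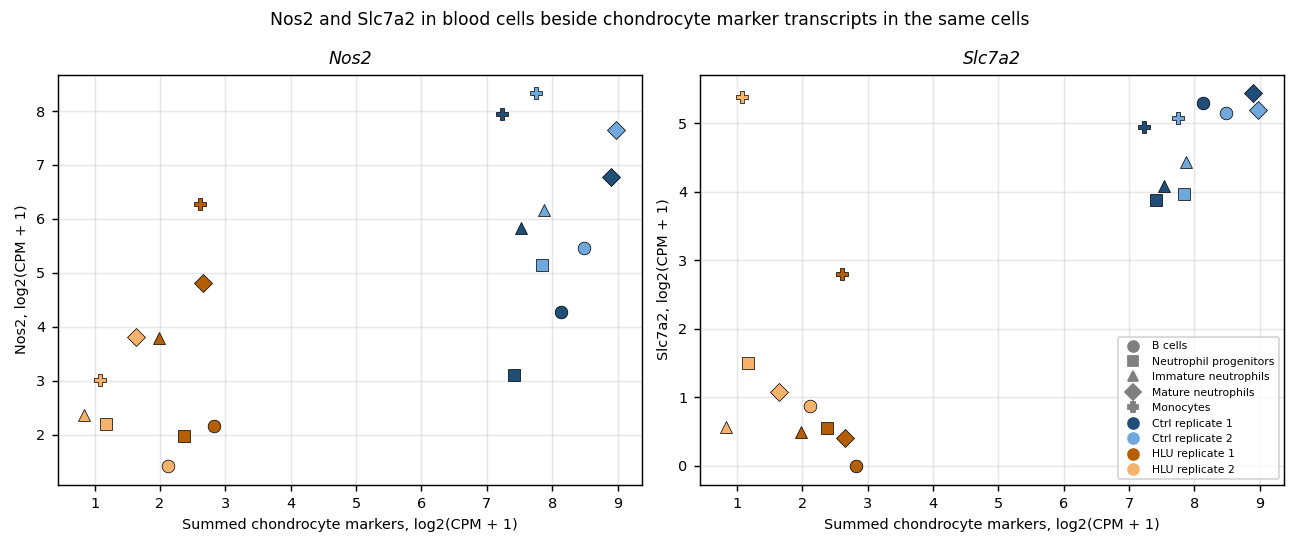
Nos2 (left) and Slc7a2 (right) in B cells, neutrophils and monocytes as log2(CPM + 1), against the summed CPM of 6 chondrocyte markers in the same cells on the same scale, 1 point per cell type (shape) and library (colour). The Ctrl sums hold 149 to 501 CPM of the markers and the HLU sums 0.792 to 6.07 CPM, and monocytes of HLU replicate 2 lie high for Slc7a2 (40.8 CPM) at 1.12 CPM of the markers.

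In stromal and osteoblast-lineage cells, where 11.2% of 12165 genes were called, 1 of 8 members was. This is close to the share of all genes, so that the count is no result about the members. Arg2 rose there (log2 fold change 1.95, SE 0.39, edgeR adjusted p = 0.0445), at the levels given above. Cluster 14, a group of low depth (median 1422 UMIs) led by the osteoblast genes Ibsp and Bglap, held 233 of the 371 such cells of HLU replicate 1, and without it the adjusted p of Arg2 by edgeR was 0.0651, while Sat1 passed. Arg2 also did not pass without Ctrl replicate 1 (edgeR adjusted p = 0.181) or without HLU replicate 1 (edgeR adjusted p = 0.0508). Markers of mature neutrophils, the cells richest in Arg2, summed to 155, 363, 2079 and 1156 CPM in the stromal and osteoblast-lineage cells, and their part in the rise was not tested. Nos2 (log2 fold change -3.55, edgeR adjusted p = 0.0624), Sat1 (-1.33, edgeR adjusted p = 0.0903) and Odc1 (0.81, edgeR adjusted p = 0.114) did not pass.

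In chondrocytes 0 of 7 members were called by edgeR, as were 0% of all 12307 genes, and DESeq2 also called 0 members. Of the members Arg2 alone had an unadjusted p under 0.05 (log2 fold change 1.83, SE 0.49, edgeR adjusted p = 0.169), beside 2191 of all genes tested. The estimates for Slc7a2 (0.61, SE 0.68) and Nos2 (-0.10, SE 1.19) were smaller than their errors. The HLU libraries, with 46 and 101 chondrocytes, lay far apart for both genes (Nos2 at 77.6 and 1776 CPM, Slc7a2 at 475 and 2051 CPM). With 2 such libraries, a change of the size of these errors was not detectable. Dendritic cells had 0 of 5 members called by edgeR (0.0213% of all genes) and 0 by DESeq2. There 1 member had an unadjusted p under 0.05, beside 137 of 4687 genes. Megakaryocytes had 0 of 3 called by edgeR (0% of all genes) and 0 by DESeq2, and 0 had an unadjusted p under 0.05, beside 515 of 6057 genes.

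**Figure D5:**
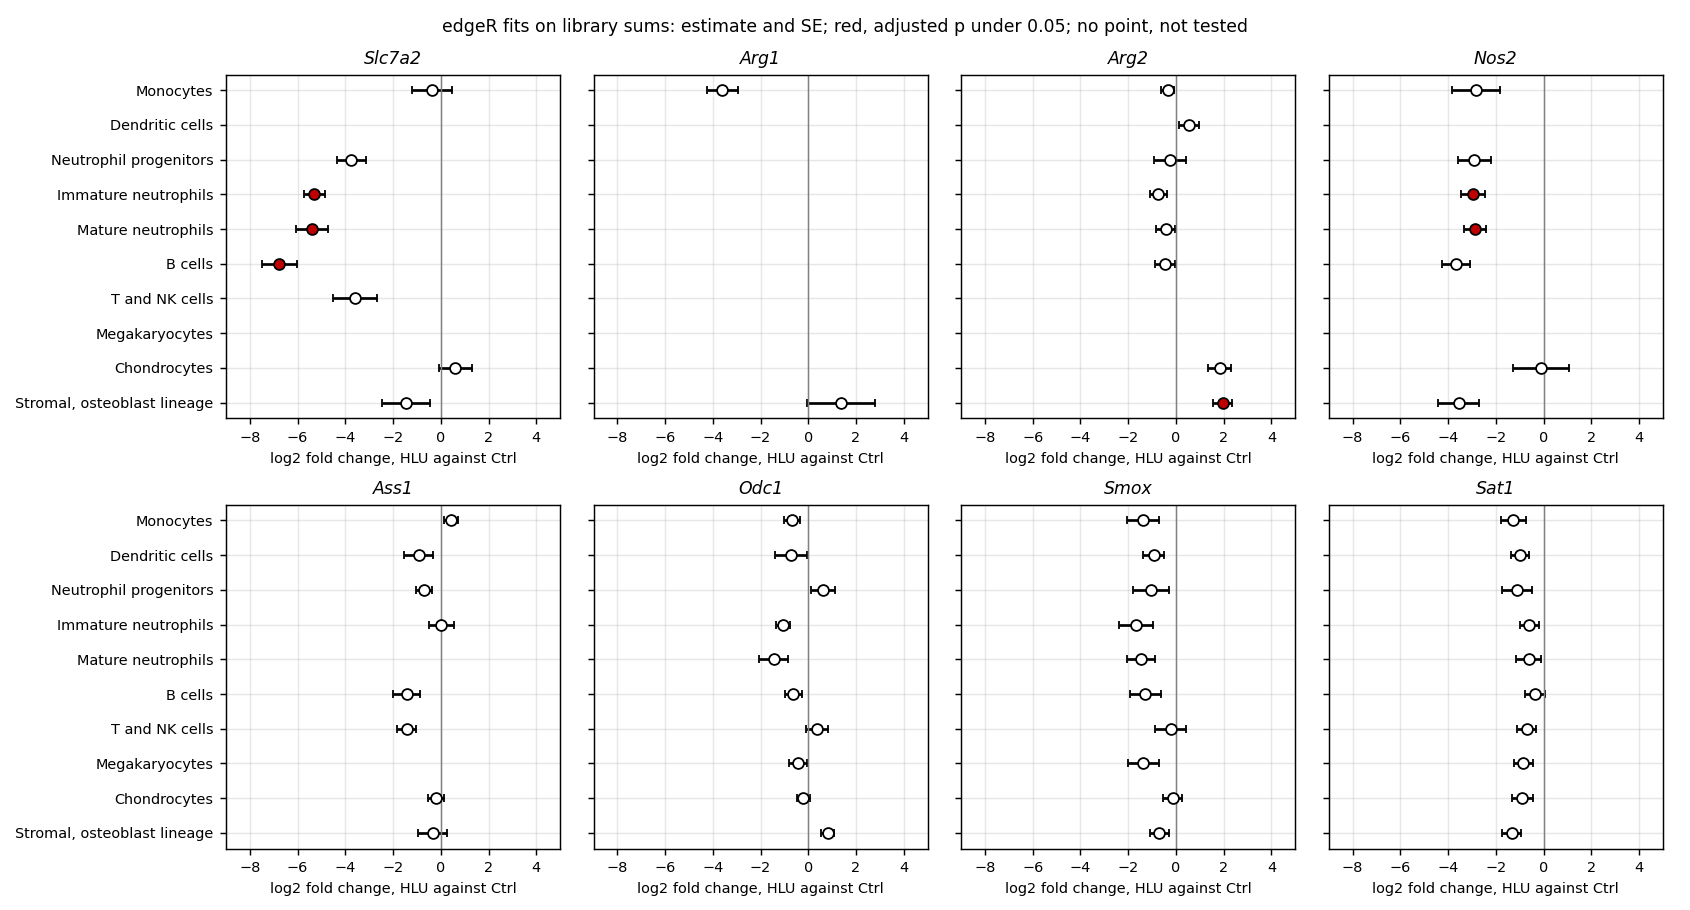
Log2 fold changes of the 8 genes, HLU against Ctrl, with their SE, from the edgeR fits in 10 cell types, where a filled red point has an adjusted p under 0.05 and no point means that the gene was not tested. Slc7a2 is called in B cells and both neutrophil stages, Nos2 in both neutrophil stages and Arg2 in stromal and osteoblast-lineage cells.

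Of 41 other genes of the pathway, covering arginine uptake, the urea cycle, nitric oxide cofactors, creatine, ornithine use, polyamine synthesis, antizymes, catabolism and hypusine, 13 to 33 were tested per cell type. In 9 of the 10 cell types 0 were called by edgeR. In monocytes 28 were tested and 1 had an unadjusted p under 0.05, beside 450 of 10460 genes. Stromal and osteoblast-lineage cells had 33 tested, with 1 higher and 2 lower in HLU, a share no larger than the 11.2% called among all genes there, so that the count is no result about the list. Pts, which makes the nitric oxide synthase cofactor tetrahydrobiopterin, rose from 14.3 and 13.5 to 42.6 and 36.6 CPM (log2 fold change 1.10, edgeR adjusted p = 0.0412). Oat, which uses ornithine for glutamate and proline, fell from 157 and 159 to 72.4 and 87.7 CPM (log2 fold change -1.38, edgeR adjusted p = 0.0349). Azin2, an antizyme inhibitor, fell from 17.7 and 18.8 to 5.41 and 6.10 CPM (log2 fold change -2.07, edgeR adjusted p = 0.0289), with 8 UMIs in each HLU library. The median over the 33 genes was -0.08, beside -0.02 over all genes tested.

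Across the 45 sums of cell type and library with at least 20 cells, the genes most like each of the leading members were ranked by Pearson's r of log2(CPM + 1) among 12534 genes. For Arg1 these were Ednrb (0.81), Kcnk13 (0.80), Fcgr1 (0.79), F7 (0.78) and Akr1b8 (0.76). For Nos2 they were Acan (0.83), Lrp1 (0.83), F3 (0.83), Trpv4 (0.82) and Emp1 (0.82), of which Acan, the cartilage proteoglycan aggrecan, is a chondrocyte marker. Among the members the closest pair was Nos2 and Slc7a2 (0.82), whereas Arg1 and Nos2 had 0.40 and Arg2 and Odc1 had -0.44. Sums of 1 library share its depth and free RNA, so these values describe the sums and were not tested.

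By position in the GRCm38 assembly, Arg1 (ENSMUSG00000019987) lies at chr10:24915221-24927484 on the minus strand, Arg2 (ENSMUSG00000021125) at chr12:79130777-79156301 on the plus strand and Nos2 (ENSMUSG00000020826) at chr11:78920787-78960254 on the plus strand. Ass1 (ENSMUSG00000076441) lies at chr2:31470207-31520672, Slc7a2 (ENSMUSG00000031596) at chr8:40862396-40922308, Odc1 (ENSMUSG00000011179) at chr12:17544794-17551505 and Smox (ENSMUSG00000027333) at chr2:131491496-131525922, all on the plus strand. Sat1 (ENSMUSG00000025283) lies at chrX:155213132-155216449 on the minus strand. Arg1 and Arg2 are thus on different chromosomes, while Arg2 and Odc1 share one and Ass1 and Smox another. No other gene counted in these libraries overlaps a member on the same strand.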

How the data were processed

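The deposited files hold raw UMI counts per gene and barcode, which the authors made with Cell Ranger 6.0.0 on mm10 (Seurat 4.1.0 is named for their later steps, per the submitters' processing notes). No normalization had been applied, and barcodes under 1000 UMIs were still present. Members and lists were chosen with earlier results of these data known. Barcodes were kept from 1000 up to 40000 UMIs, if mitochondrial genes gave no more than 10% of them and 200 or more genes were seen. Putative doublets were called by Scrublet in scanpy 1.11.5, where the study used DoubletFinder, and removed. Libraries were integrated by canonical correlation in Seurat 5.3.0 on variable genes without the members and the other pathway genes.

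Clusters were named by fixed markers, needing 3 or more markers whose log2 fold change reached 1 (mean 1.5 or more). These limits were set after seeing the data, as were leaving a cluster led by mural cell genes unnamed and pooling osteoblasts with stromal cells. The study compared cells by a Wilcoxon test. Here the UMIs of each cell type were added up within a library and the sums tested by edgeR 4.0.16 (filterByExpr, TMM, quasi-likelihood) in R 4.3.3, with DESeq2 1.42.0 as an alternative, and SE was taken as the estimate over the root of F. The procedure was tested on simulated data made from monocytes (10729 genes), where 197 of 200 genes changed by a log2 of 2 were recovered with 8 false calls. The simulation gave all genes the same fixed dispersion and changed no rare gene. Its counts therefore do not give the share of such changes that would be found in the real libraries. In the real monocytes Arg1, with an estimate of -3.60, was not called. Each group had 2 libraries. Thinning drew 1000 UMIs per cell with 1 seed. Intervals are exact (Clopper-Pearson, 95%), and the floor is 3 UMIs. The text names all 8 members, other pathway genes with an adjusted p under 0.05, and the 5 genes most like Arg1 and Nos2. Other size factors, no filter on low counts, leaving out each library, the replicate number as a block, other clusterings and other cell filters were tried. Replicate numbers come from the sample titles only. Python 3.11.15 was used elsewhere. Sequences of the members were not used here.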

Additional observations from a re-analysis of the deposited data

Results flagged for a closer look

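Some members lay higher in HLU than in Ctrl in certain cell types and lower in others, with every library of each group on the same side. The estimates are log2 fold changes, HLU against Ctrl, and the differences between cell types were not tested. Of all genes tested, 48.7% lay higher in HLU without overlap in stromal and osteoblast-lineage cells, 36.5% in chondrocytes, 22.4% in monocytes and 21.1% in dendritic cells. Those lower without overlap were 23.5% in mature neutrophils, 19.04% in immature neutrophils, 15.6% in monocytes, 12.4% in T and NK cells, 8.74% in B cells and 8.64% in neutrophil progenitors. Arg2 was higher in chondrocytes (1.83), dendritic cells (0.55) and stromal and osteoblast-lineage cells (1.95) and lower in immature neutrophils (-0.73) and monocytes (-0.35). Ass1 was higher in monocytes (0.41) and lower in B cells (-1.42), neutrophil progenitors (-0.71) and T and NK cells (-1.42). Odc1 was higher in stromal and osteoblast-lineage cells (0.81) and lower in immature neutrophils (-1.06), mature neutrophils (-1.46) and monocytes (-0.67).

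Among barcodes under 1000 UMIs, which no comparison used, Arg2 stood at 239.7 CPM in HLU replicate 1, above the 116 and 178 CPM of Ctrl replicates 1 and 2, whereas HLU replicate 2 had 118 CPM (23 UMIs), within the Ctrl range.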

How the results depend on the processing

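Of 8 members, 0 were called in monocytes by edgeR, 2 by DESeq2, 3 with no filter on low counts and 0 to 5 with 1 library left out. In the other cell types together 6 were called, against 11 by DESeq2, 17 with no filter and 4 to 37 with 1 library left out. Shares of all genes called under these alternatives are not given here. The counts of members and pathway genes in this paragraph show how calls depend on the settings and are no result about these genes. A fit with 1 library left out also rests on 1 library in a group. By cell type, DESeq2 called 2 in B cells, 2 in neutrophil progenitors and 3 in stromal and osteoblast-lineage cells. No filter gave 3, 2 and 3 there, 1 in chondrocytes and 2 in T and NK cells, and RLE size factors gave 1 in immature neutrophils. With 1 library left out there were 1 to 6 in B cells, 0 to 2 in dendritic cells, 1 to 6 in immature neutrophils, 1 to 7 in mature neutrophils, 0 to 2 in megakaryocytes, 0 to 7 in neutrophil progenitors, 0 to 4 in stromal and osteoblast-lineage cells and 0 to 4 in T and NK cells. Each of these highest counts came without HLU replicate 1, except that in stromal and osteoblast-lineage cells, which came without HLU replicate 2. Samples with the same replicate number deviated together little (Pearson's r from -0.118 in stromal cells to 0.199 in dendritic cells, 0.00352 in monocytes). With 1 pair of libraries per replicate number these values cannot decide whether such samples shared a batch. With the replicate number as a block 1 member was called in megakaryocytes, 2 in neutrophil progenitors, 0 in stromal and osteoblast-lineage cells and 0 in monocytes, and the crossed pairing, added after seeing the data, gave 3 in stromal and osteoblast-lineage cells. Other pathway genes called were 3, against 10 by DESeq2, 18 with no filter, 1 with the block and 0 to 54 with 1 library left out. HLU minus Ctrl, the share of monocytes with Arg1 and Nos2 was -19.6 points (-8.99 after thinning), that with Arg1 -24.9 points (-18.6 after thinning) and that with Nos2 -32.8 points (-14.9 after thinning). Slc7a2 in monocytes changed sign without HLU replicate 1, from -0.37 to 0.39, and was -2.45 without HLU replicate 2. The causes were not tested. The calls of Slc7a2 in B cells and both neutrophil stages held in 8 of 8 alternatives each. None of these alternatives removed free RNA, and its part in the calls was not tested. Other cell filters and clusterings, clusters 6 and 13 alone, and a fit without marker genes of other cells left 0 members called in monocytes. The fit without marker genes kept the members' own counts as they were, so it cannot show the part of free RNA in them. With 2 libraries per group and 46 chondrocytes in 1 of them, small changes were not detectable.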
